A study of Mus musculus with 3 samples.

Results

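Matrix metalloproteinases (MMPs) and their tissue inhibitors (TIMPs) were followed in CT26.WT, a mouse colon carcinoma cell line, after exposure to S100a8 or S100a9. The set held 10 genes chosen by name, of 18193 named genes on the array: Mmp2, Mmp3, Mmp9, Mmp10, Mmp11, Mmp13, Mmp14, Timp1, Timp2 and Timp3. All 22 probe sets that the platform annotation assigns to exactly 1 of these symbols were taken. The S100a8 group was CT26.WT kept without serum for 12 h and then given 4 µg/ml of recombinant mouse S100a8 for 24 h. The S100a9 group was likewise kept without serum for 12 h and received recombinant mouse S100a9 at the same dose and for the same time. The control group was also kept without serum for 12 h and had neither protein. Its sample title gives bovine serum albumin where the other labels give saline, and no exposure time is recorded for it. Each group was 1 culture on 1 Affymetrix mouse genome array, so there were no replicates, no test was possible, and every difference below is one between single arrays.

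MMPs are zinc-dependent proteases that are secreted, or held at the cell membrane, as inactive precursors and that cut collagens, proteoglycans and other proteins around the cell. TIMPs are secreted proteins that bind the active site of MMPs and block it. In tumours the balance between the proteases and their inhibitors is known to shape invasion and the turnover of the surrounding matrix, and several MMP genes are textbook targets of AP-1, the dimer of Fos and Jun proteins.

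The promoters are shown first for the 3 members with the lowest ratios to control (Mmp13, Mmp3 and Mmp10) and for Mmp1a, a neighbouring gene on chromosome 9 with very dim signals, because all 4 carry the same pair of short motifs just upstream of the transcript start. Each line gives the 100 bases before the annotated start from RefSeq (GRCm38.p6, + strand), 5′ to 3′, with the AP-1 motif TGANTCA and the TATA box TATAAA in capitals. The windows are chr9:7272414-7272513 for Mmp13, chr9:7445722-7445821 for Mmp3, chr9:7502242-7502341 for Mmp10 and chr9:7464041-7464140 for Mmp1a.
Mmp13: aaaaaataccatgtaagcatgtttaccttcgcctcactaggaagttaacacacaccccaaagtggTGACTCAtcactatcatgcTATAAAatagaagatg
Mmp3: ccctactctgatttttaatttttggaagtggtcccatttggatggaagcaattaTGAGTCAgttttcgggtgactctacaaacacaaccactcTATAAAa
Mmp10: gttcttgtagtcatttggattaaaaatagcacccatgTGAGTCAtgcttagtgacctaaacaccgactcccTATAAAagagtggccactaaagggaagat
Mmp1a: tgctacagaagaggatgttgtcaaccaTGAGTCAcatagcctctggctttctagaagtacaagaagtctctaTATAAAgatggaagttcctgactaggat

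RefSeq promoters of 250 bases before to 50 bases after the start were in the table for 8 of the 10 members, but not for Mmp2 and Mmp9. TGANTCA, which reads the same way on both strands apart from its middle base, was found in 3 of these 8, and 7.81% of all 32851 promoters of that length held it. Its first base lay 35 bases upstream of the start in Mmp13, 46 in Mmp3 and 63 in Mmp10. The same 3 members held TATAAA, found in 13.6% of all promoters, at 16, 7 and 29 bases upstream, and the motifs did not overlap. The promoters of Mmp11, Mmp14, Timp1, Timp2 and Timp3 held neither. AGGAAG, a motif bound by ETS factors, was in 5 of the 8 (35.4% of all promoters), and the NF-kB consensus was in 0 of the 8 (8.46% of all promoters). With 8 promoters and windows of this length, no lack of NF-kB sites can be read from that count. All motifs were searched on both strands, and a match is a run of letters, not a measured binding site.

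**Figure D1:**
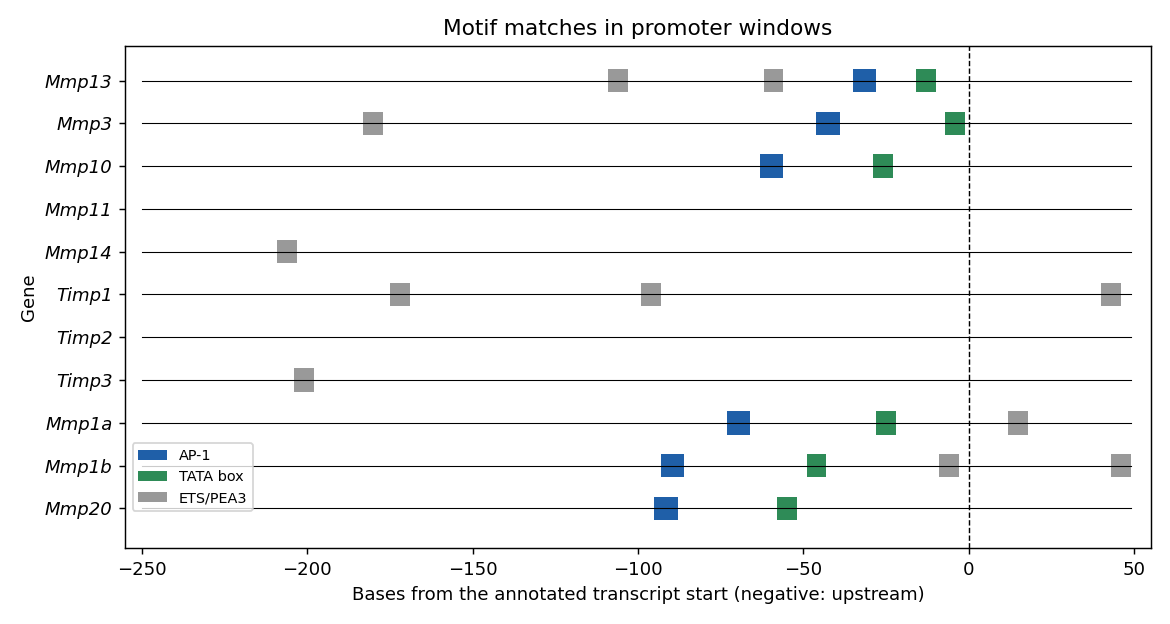
Positions of motif matches (blue AP-1, green TATA box, grey ETS) along promoters of 8 members and of Mmp1a, Mmp1b and Mmp20. The x axis gives bases from the annotated transcript start (dashed line), and each row is 1 gene. AP-1 and TATA matches sit side by side in Mmp13, Mmp3, Mmp10 and the last 3 genes, and in none of Mmp11, Mmp14, Timp1, Timp2 and Timp3. Not drawn are the chromosome 9 genes Mmp8 and Mmp27, which held no AP-1 match, and Mmp12 and Mmp7, which have 2 promoters each.

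Values are the deposited MAS5 signals on a linear scale, 1 per probe set and array. Array medians were 78.6 for S100a8, 73.6 for S100a9 and 76.1 for the control. Signals under the floor of 76.0, the median of all signals, were set to it before log2 ratios were taken, and a gene was compared if the mean log2 signal of its brightest probe set lay above the floor, which held for 11138 genes. Of the members, 8 were compared, while Mmp2 and Timp3 lay below the floor on every array. Of the 22 member probe sets, 13 were above the floor on all 3 arrays and 8 on none. Dim signals ran slightly high on the S100a8 array: for the dimmest 25% of compared genes the median log2 ratio to control was 0.14 with S100a8 and 0.00 with S100a9, against −0.01 and 0.01 for the rest.

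CT26.WT carried only part of an epithelial profile on these arrays. Among 10 epithelial markers, 4 were above the floor on each array (Krt18, Krt20, Cdx2 and Epcam), and Cdh1, Krt8, Krt19, Cldn7, Vil1 and Lgals4 were below it. Of 11 fibroblast markers 6 were above the floor, with Col1a2 at 7385 (S100a8), 7839 (S100a9) and 7467 (control). Of 11 macrophage and granulocyte markers 7 were above it, while Ptprc, Itgam, Adgre1 and Elane were below.

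In S100a8-treated cells the collagenase gene Mmp13 and the stromelysin genes Mmp3 and Mmp10 were each at least 2-fold lower than in the control. These were 3 of the 8 compared members, where 0.287% of all compared genes, and 0.323% of the dimmest 25% of them, were at least 2-fold lower. Mmp13 and Mmp10 belong to that dimmest 25%. By their brightest probe sets the other 5 compared members lay within 1.5-fold of control. In S100a9-treated cells Mmp13 was the 1 member at least 2-fold lower (0.144% of all compared genes were), and Mmp3 and Mmp10 were at least 1.5-fold lower. At least 1.5-fold lower with S100a9 were 0.853% of all compared genes and 1.15% of the dimmest 25%. With either protein 0 members were at least 1.5-fold higher by their brightest probe set, against 1.13% of all compared genes with S100a8 and 0.251% with S100a9.

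Mmp13 encodes the main interstitial collagenase of the mouse, which cuts fibrillar collagen. Its signals were 69.3 with S100a8, 105 with S100a9 and 261 in control cells. The control array stood well above both treated arrays, and the S100a8 signal lay below the floor. Mmp13 was therefore at least 3.44-fold lower with S100a8 and was 2.49-fold lower with S100a9. In order from the lowest ratio among 11138 compared genes it was number 2 with S100a8 and number 5 with S100a9.

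Mmp3, stromelysin 1, cuts proteoglycans, laminin and fibronectin and activates other MMP precursors. The S100a8 array gave 144, the S100a9 array 220.5 and the control 356, all above the floor. The log2 ratios to control were −1.31 with S100a8 (2.48-fold lower) and −0.69 with S100a9 (1.62-fold lower), at places 15 and 53 from the lowest.

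Mmp10, stromelysin 2, is its close relative with a similar range of substrates. The S100a8 array gave 105, the S100a9 array 160 and the control 275, the same order as for Mmp3. The log2 ratios were −1.39 (2.62-fold lower) and −0.78 (1.72-fold lower), at places 12 and 34. Each of Mmp13, Mmp3 and Mmp10 is read by a single probe set, so no further probe set could check these values, and cross-hybridisation between such related genes was not tested.

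Mmp11, stromelysin 3, differs from its namesakes in being activated inside the cell by furin. Its signals were 217 with S100a8, 213 with S100a9 and 191 in control cells, with log2 ratios of 0.19 and 0.16. The treated arrays were thus slightly above control where those of Mmp3 and Mmp10 were far below.

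**Figure D2:**
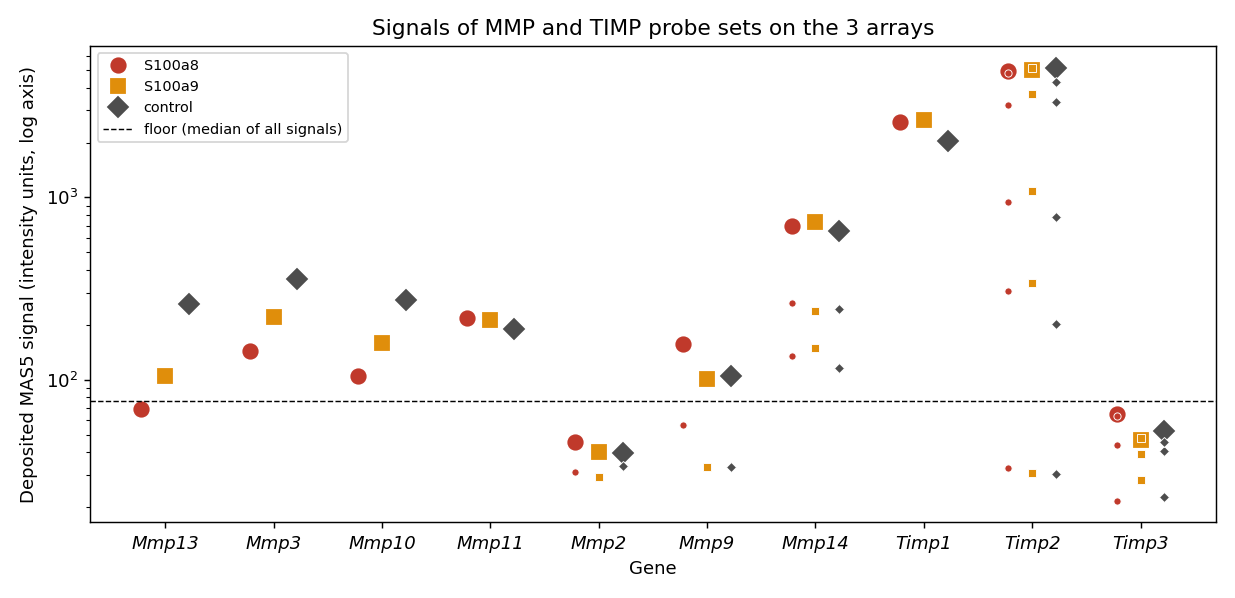
Deposited MAS5 signal (log axis, intensity units) of each member on the S100a8 (red circles), S100a9 (orange squares) and control (grey diamonds) arrays. Large marks are the brightest probe set, small marks the other probe sets of the gene, and the dashed line is the floor of 76.0. Mmp13, Mmp3 and Mmp10 step up through S100a8, S100a9 and control, whereas the large marks of Mmp14 and Timp2 lie close together.

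The gelatinases degrade denatured collagen and the collagen IV of basement membranes. Mmp2 had 2 probe sets, both below the floor on every array, at 45.5 and 31.3 with S100a8, 40.0 and 29.4 with S100a9, and 39.4 and 33.7 in the control. At this brightness no difference can be read.

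Mmp9 was above the floor on its brighter probe set, at 156 with S100a8, 101 with S100a9 and 104 in control cells. Here the S100a8 array alone stood apart, and upwards. The log2 ratio was 0.58 with S100a8, just under the 1.5-fold size, and −0.05 with S100a9, a value that was 0.0033 after quantile normalization. The second Mmp9 probe set lay below the floor throughout, at 56.4, 33.1 and 33.0, and was also highest on the S100a8 array. Mmp9 belongs to the dimmest 25% of compared genes, whose median was itself 0.14 with S100a8. Centred on the median of genes of like brightness, a setting chosen after seeing the data, its S100a8 ratio was 0.45 (1.37-fold). The cause of the remaining difference was not tested.

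Mmp14 encodes a membrane-type MMP that activates the Mmp2 precursor at the cell surface. Its brightest probe set gave 697 with S100a8, 733 with S100a9 and 653 in control cells. Across its 3 probe sets the log2 ratios ran from 0.09 to 0.21 with S100a8 and from −0.03 to 0.36 with S100a9, so the probe sets did not give S100a9 a single direction.

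Timp1, a secreted inhibitor of most soluble MMPs, was bright, at 2595 with S100a8, 2673 with S100a9 and 2032 in control cells. Both treated arrays lay above control, by log2 ratios of 0.35 and 0.40 (1.28-fold and 1.32-fold). With S100a9 1.54% of compared genes had a higher ratio than Timp1, and with S100a8 7.51% did. Timp1 has 1 probe set on this array.

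Timp2 both inhibits MMPs and, together with Mmp14, helps to activate Mmp2. It had 5 probe sets above the floor, and they disagreed. The brightest gave 4921 with S100a8, 4975 with S100a9 and 5159 in control cells, with log2 ratios of −0.07 and −0.05. A second bright probe set had 4811, 5121 and 4288, with 0.17 and 0.26. The dimmest of the 5 had 305, 339 and 201, with 0.60 (1.52-fold higher) and 0.75 (1.69-fold higher). With S100a8 the ratios of 3 probe sets were positive and 2 negative, and with S100a9 4 were positive and 1 negative. Over 4703 genes with a pair of probe sets above the floor on all arrays, the median gap between the log2 ratios of the pair was 0.14 with S100a8 and 0.12 with S100a9. No direction is given for Timp2.

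Timp3, an inhibitor bound to the matrix that also blocks ADAM proteases, had 4 probe sets and all were below the floor on every array. Their signals ranged from 21.7 to 64.6 with S100a8, from 28.0 to 48.1 with S100a9 and from 22.6 to 52.1 in the control.

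**Figure D3:**
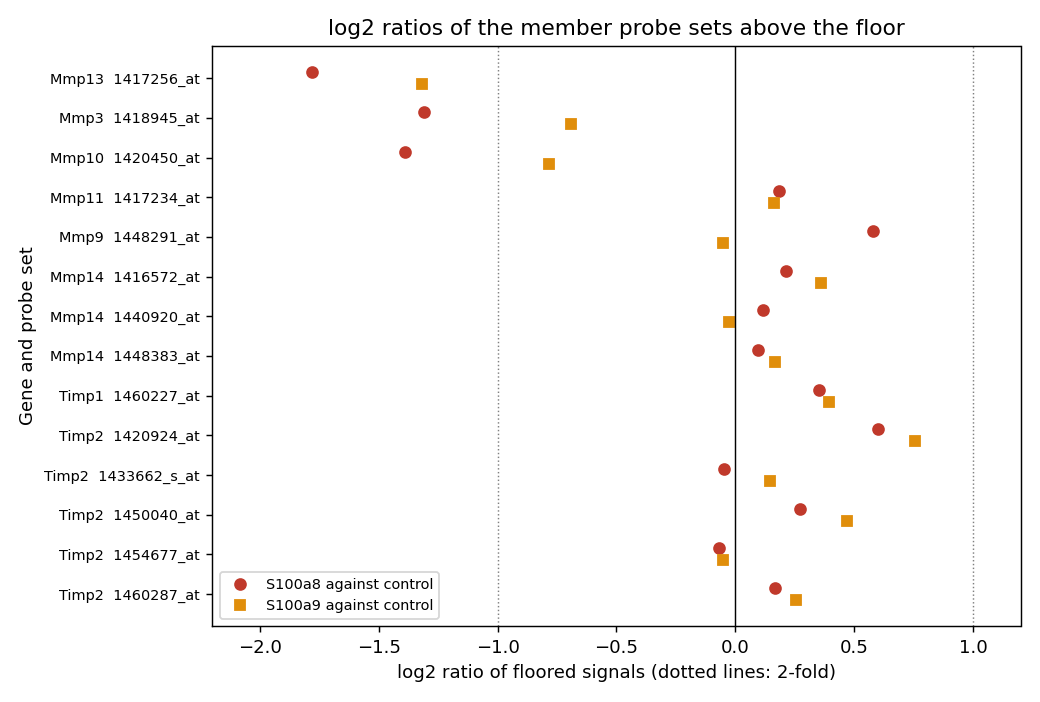
log2 ratios to control of the 14 member probe sets above the floor on at least 1 array, for S100a8 (red circles) and S100a9 (orange squares). Each row is 1 probe set, and dotted lines mark 2-fold. Mmp13, Mmp3 and Mmp10 lie far left, and the 5 Timp2 rows spread from −0.07 to 0.60 with S100a8.

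The median log2 ratio of the 8 compared members was 0.01 with S100a8 and −0.05 with S100a9, beside 0.01 and 0.00 for all compared genes. A median near 0 hides the split between 3 low protease genes and the rest. The set's S100a8 ratios ran from −1.78 to 0.58 and its S100a9 ratios from −1.32 to 0.40. Both ratios use the same control array, so a deviation of that array enters each of them. With the floor raised to the 65th percentile, 1 member was at least 2-fold lower with S100a8 in place of 3, since Mmp13 was no longer compared and Mmp10 was at −0.84. At that floor 0.283% of all compared genes were at least 2-fold lower with S100a8.

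**Figure D4:**
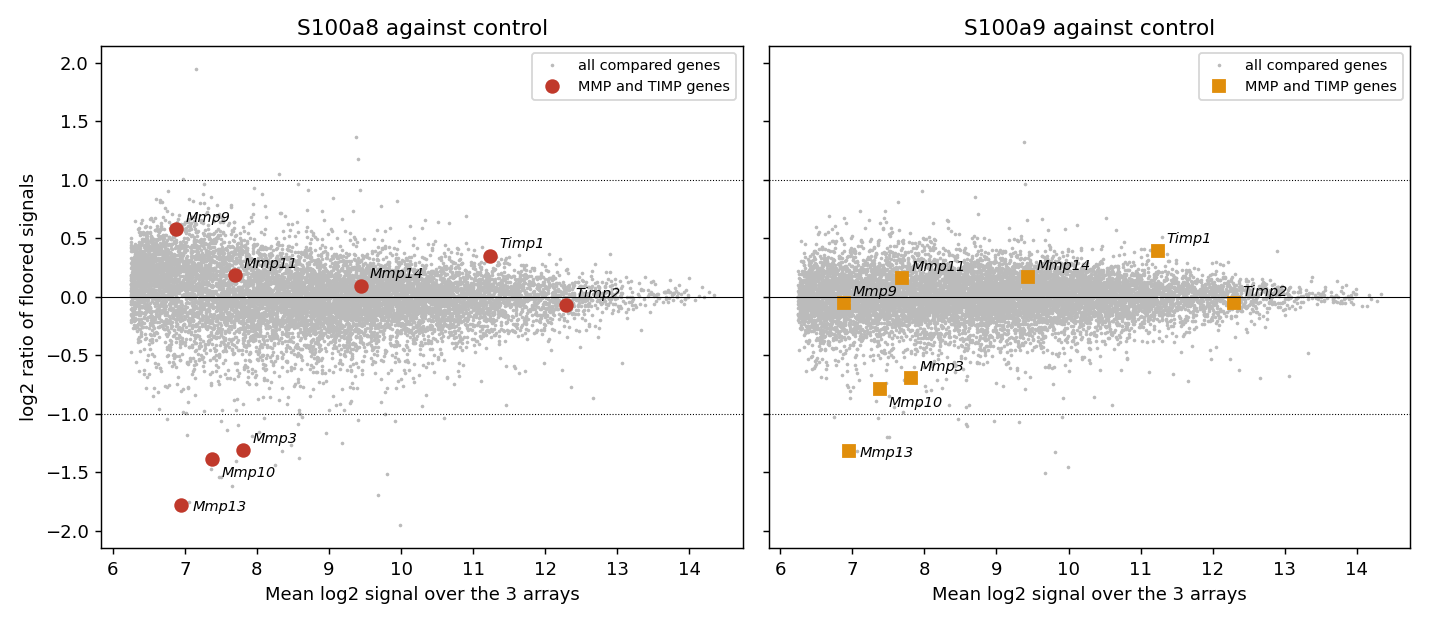
log2 ratio to control (y axis) against mean log2 signal over the 3 arrays (x axis) for 11138 compared genes (grey) and the 8 compared members (coloured), S100a8 on the left and S100a9 on the right. Dotted lines mark 2-fold. Mmp13, Mmp3 and Mmp10 sit at the lower edge of the cloud at low to moderate brightness, and the bright Timp1 sits near its upper edge with S100a9.

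The control array does not enter the direct comparison of the proteins. Mmp3 had a signal of 220.5 with S100a9 and 144 with S100a8, a log2 ratio of 0.62. Mmp10 had 160 with S100a9 and 105 with S100a8, a ratio of 0.60. These were 2 of the 11 compared genes (0.0988%) at least 1.5-fold higher with S100a9 than with S100a8. Mmp13 was at 0.46, a lower bound, since its S100a8 signal was at the floor. Mmp9 belongs to the dimmest 25% of compared genes, of which 3.27% were at least 1.5-fold lower with S100a9 than with S100a8. Mmp9 was the 1 member that far lower (−0.63), as were 1.01% of all compared genes. That size was not reached after median centring (1.45-fold), quantile normalization (1.497-fold) or centring by brightness (1.41-fold), and Mmp9 was not compared with the mean of all probe sets or the floor at the 65th percentile. With that floor 0 members were at least 1.5-fold higher with S100a9, and with centring by brightness 1 was. The shares of all compared genes that far higher were 0.0566% and 0.224%. Mmp11, Mmp14, Timp1 and Timp2 had ratios between −0.02 and 0.07.

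Mmp13, Mmp3 and Mmp10 lie in the same gene cluster on chromosome 9, which holds 10 MMP genes in the RefSeq table. Of the 9 with a probe set, 3 were compared and these are the 3 low members. Mmp12, Mmp1b, Mmp1a, Mmp8, Mmp20 and Mmp7, which lie between and beside them, were below the floor on every array. The AP-1 motif was found in a promoter of 8 of the 10 cluster genes, all but Mmp8 and Mmp27. Of these 8, 5 were not among the compared genes. Mmp1a, whose promoter is printed above, holds the AP-1 motif 73 bases upstream. It gave 9.05 with S100a8, 3.59 with S100a9 and 5.97 in control cells. Among flanking genes, Dcun1d5 had log2 ratios of 0.24 with S100a8 and 0.16 with S100a9, and Dync2h1 had −0.36 and −0.12. On the other flank Tmem123 was at 0.44 and 0.19 and Birc2, an inhibitor of apoptosis, at −0.26 and −0.04. Its relative Birc3, an NF-kB target, was at −1.16 and −0.80, and the next gene, Yap1, at −0.03 and −0.09. Of the genes in this stretch with a readable ratio, Mmp13, Mmp3, Mmp10 and Birc3 were at least 1.5-fold lower with either protein, and the others were not. The MMP genes below the floor gave no readable ratio.

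**Figure D5:**
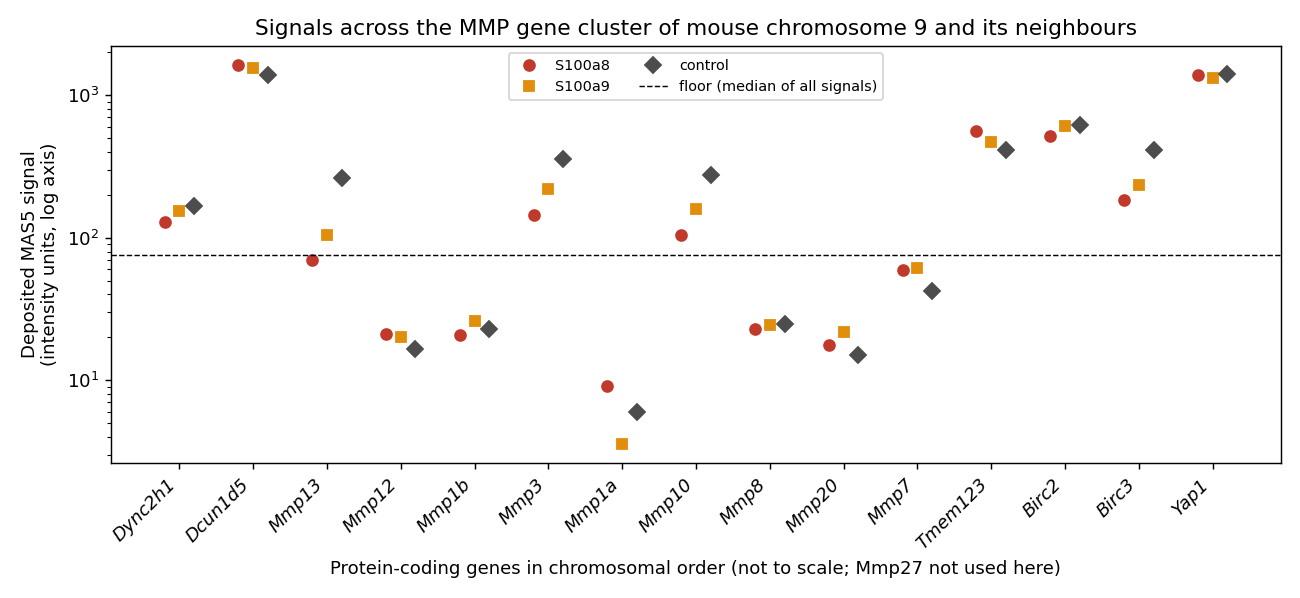
Deposited MAS5 signal (log axis, intensity units) on the S100a8 (red), S100a9 (orange) and control (grey) arrays for protein-coding genes in their order along chromosome 9, not to scale. The dashed line is the floor of 76.0. Mmp13, Mmp3, Mmp10 and Birc3 show the control well above both treated arrays, and the other MMP genes of the cluster lie under the floor.

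The genes whose pattern over the 3 arrays was likest were found by the Euclidean distance between log2 signals centred on their mean, among the other genes above the floor on every array (10715 for Mmp13, 10714 for Mmp3 and Mmp10). For Mmp13 these were the chemokine gene Cxcl3, the monocyte attractant gene Ccl2 and Nfkbie, an NF-kB inhibitor. Their order is not settled, since the S100a8 signal of Mmp13 was set to the floor: Cxcl3 was nearest with the floor (distance 0.03, and 0.13 for Ccl2), and Ccl2 was nearest without it (0.10, and 0.13 for Cxcl3), a setting chosen after seeing the data. For Mmp3 they were Ifit1, an interferon-induced gene (0.06), Mmp10 (0.07) and Parp14 (0.09). For Mmp10 they were Parp14 (0.04), Mmp3 (0.07) and Ifit1 (0.13). Mmp3 and Mmp10 were thus each the second nearest gene to the other. With 3 arrays this likeness is a description of 2 ratios per gene.

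Of 16 further MMP genes and Timp4, 12 had a probe set with a single symbol and 2 were compared. Mmp16, a membrane-type MMP, gave 137 with S100a8, 113 with S100a9 and 82.3 in control cells. It was 1.66-fold higher with S100a8 and had a log2 ratio of 0.46 with S100a9, from a dim control signal. Mmp17, another membrane-type MMP, was at −0.24 and −0.38, with signals close to the floor.

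Genes that activate MMPs or hold them at the cell surface mostly lay near control. Of 31 listed, 18 were compared, with medians of −0.11 with S100a8 and −0.05 with S100a9. With either protein 0 were at least 1.5-fold lower and 1 was at least 1.5-fold higher. Of all compared genes 1.91% were that far lower and 1.13% that far higher with S100a8, and 0.853% and 0.251% with S100a9. A count of 0 among 18 lies near those shares. The higher gene was Klk10, a kallikrein-related serine protease, at 443 with S100a8, 337 with S100a9 and 214 in control cells. Ctsb, a lysosomal protease, had ratios of 0.01 and 0.04 on its brightest probe set, while its others ran from −0.51 to 0.22 with S100a8 and from −0.31 to 0.15 with S100a9. Cav1, caveolin, had 0.00 and 0.04. Furin, which activates Mmp11 and Mmp14, was at −0.22 and 0.02. Reck, a membrane inhibitor of MMPs, was at −0.47 and −0.09.

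Among the related ADAM and ADAMTS proteases 7 of 20 were compared, with medians of −0.15 and 0.00. Adam33 was 1.59-fold lower with S100a8 (149, against 237 in the control) and at −0.52 with S100a9. Its second probe set gave −1.15 and −0.88. Adam10, which sheds membrane proteins, had ratios of 0.14 with S100a8 and 0.04 with S100a9, and Adam17, another sheddase, had −0.36 and −0.28.

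Of 25 matrix genes whose products MMPs cut, 18 were compared. Their medians were −0.16 with S100a8 and −0.12 with S100a9, beside 0.01 and 0.00 for all compared genes. Of the 18, 14 were below control with either protein, a share that was not counted over all compared genes. Col6a1 was 1.96-fold lower with S100a8 and 1.63-fold lower with S100a9 (signals of 158 and 190, against 309 in the control). Col5a1 was 1.63-fold and 1.55-fold lower. Dcn, the proteoglycan decorin, was at −0.92 and −0.28. Col1a2 was at −0.02 and 0.07 on its brightest probe set, while its other probe sets above the floor ran from −1.20 to 0.28 with S100a8 and from −1.01 to 0.22 with S100a9.

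Fos, a subunit of AP-1, was dim, at 85.2 with S100a8, 136 with S100a9 and 193 in control cells. It was 2.27-fold lower with S100a8, and its log2 ratio with S100a9 was −0.51. Of the 14 listed AP-1 and ETS factor genes 11 were compared, with medians of −0.15 and −0.07. By brightest probe sets Fos was the 1 gene at least 1.5-fold lower with S100a8, as were 1.91% of all compared genes. Etv4, an ETS factor, was at 0.06 and 0.12 on its brightest probe set and at −0.96 and −0.65 on its second. Jun was at −0.40 and −0.33 on its brightest probe set and at 0.07 and 0.01 on its second. Junb was at −0.41 and −0.51 and Jund at −0.11 and −0.07. Fosl1 was at −0.25 and −0.23 on its brightest probe set and at −0.67 and −0.74 on its second.

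Genes of NF-kB subunits and inhibitors lay mostly below control. Of 11 listed, 9 were compared, and by their brightest probe sets all 9 had negative log2 ratios with either protein. Their medians were −0.77 and −0.60, beside 0.01 and 0.00 for all compared genes. With S100a8 6 of the 9 were at least 1.5-fold lower and with S100a9 5 were, where 1.91% and 0.853% of all compared genes were. Nfkbie was 3.06-fold and 2.50-fold lower, and the subunit gene Relb 2.07-fold and 1.73-fold lower. The ubiquitin-editing brake Tnfaip3 was at −1.06 and −1.03 and the inhibitor gene Nfkbia at −0.77 and −0.62. Of further subunit genes, Nfkb2 was at −0.78 and −0.60 and Rel at −0.77 and −0.23. Rela, the main transactivating subunit, was at −0.31 and −0.06. The inhibitor gene Nfkbib was at −0.58 and −0.56 on its brightest probe set and at 0.35 and −0.06 on its second.

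Markers of other cells that make MMPs moved in part with these genes. The 6 compared fibroblast markers had medians of −0.49 with S100a8 and −0.17 with S100a9, led by Pdgfrb at −0.92 and −0.76. Pdgfra was at −0.69 and −0.17 on its brightest probe set and at 0.23 and 0.10 on its second. The signals of all 11 summed to 10939 with S100a8, 11979 with S100a9 and 12176 in control cells, and Acta2, Fap, Lum, Postn and Thy1 were below the floor on each array. The 7 compared macrophage and granulocyte markers had medians of 0.43 and 0.23, among them Cd68 at 0.63 and 0.53 and Cd53 at 0.48 and 0.59. Cd14, the brightest of them, was at −0.39 and 0.01, and Mpo at 0.43 and −0.11. Signals of the 11 markers with a probe set summed to 2586, 2796 and 2516. Of 6 endothelial markers 3 were compared, with medians of 0.27 and 0.00, and Pecam1, Cdh5 and Tek were below the floor. The 6 summed to 461 with S100a8, 398 with S100a9 and 385 in control cells. Of 5 lymphocyte markers with a probe set 3 were compared, with medians of 0.36 and 0.01 and sums of 1101, 905 and 981, and Cd79a and Ncr1 were below the floor. The 4 compared epithelial markers had medians of 0.04 and −0.12, and the 10 summed to 1838, 2021 and 2219. The labels name a cell line, CT26.WT, for every culture, so no share of other cell types is read from these markers. Their link to the MMP values was not tested. In bulk RNA a change in some of the cells and a change in all of them cannot be told apart.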

How the data were processed

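Total RNA of 3 CT26.WT cultures was measured on 3 arrays, with biotin-labelled cRNA made from 1 µg of RNA per the labels' protocols. The authors deposited linear intensities, 1 per probe set, and MAS5 is the tool named in the submitters' processing notes (version and scaling not given in the sources used here). Because MAS5 takes off mismatch signal and scales each array, dim intensities are noisy and a change in total RNA per cell would not show. Precision is limited by the number of arrays.

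Computed here with Python 3.11.15 and pandas 2.3.3: of 45101 probe sets, 34945 had 1 symbol, 932 several and 9160 were not listed in the platform annotation, which can be old. Intensities under the 50th percentile (76.0), taken without the 64 control probe sets, were set to it, log2 ratios were formed, and each gene was represented by its brightest probe set. Folds of 2 and 1.5 are descriptive sizes. Groups came from the labelled agent.

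The members and gene lists were chosen with earlier results of these data known. The text names all members. From each other list it names genes at least 1.5-fold from control, up to 6 per list, and up to 2 near 0. It also names the 3 likest genes of each member spanning at least 1 on the log2 scale. Other named genes (Reck, Furin, Mmp17, Adam10, Adam17, Jun, Junb, Jund, Fosl1, Etv4, Rela, Nfkbib, Cd14, Mpo, the cluster's neighbours and markers below the floor) were chosen for their roles, positions or probe set values after their values were seen. Listed genes without a single-symbol probe set could not be compared. Promoters are RefSeq's, build GRCm38.p6. The values were recomputed under 8 other settings and under 1 chosen after seeing the data, and the likest genes were also sought without the floor.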

Additional observations from a re-analysis of the deposited data

Results flagged for a closer look

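Mmp9 had log2 ratios to control of opposite sign on the treated arrays, 0.58 with S100a8 and −0.05 with S100a9. The S100a9 ratio lies within the SD of 0.16 between probe sets of a gene and was 0.0033 after quantile normalization, so its sign is not settled. Its sign was the main one in 6 of the 7 alternatives that compared Mmp9, each group is 1 array, and the difference was not tested.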

How the results depend on the processing

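The log2 ratios of Mmp3, Mmp10 and Mmp13 to control stayed negative under every alternative that compared them. With S100a8 they ranged from −1.36 to −1.21 for Mmp3, from −1.47 to −0.84 for Mmp10 and from −1.91 to −1.75 for Mmp13. With the floor at the 65th percentile, 6 members were compared. Then 1 member was at least 2-fold lower with S100a8 and 0 with S100a9, beside 0.283% and 0.136% of all genes compared there. For S100a9 against S100a8 0 were at least 1.5-fold higher and 0 at least 1.5-fold lower, beside 0.0566% and 0.283%. With 6 members and shares this low, a count of 0 tells nothing about the members. Median centring, quantile normalization, the mean of all probe sets and centring by brightness, the last chosen after seeing the data, each left 0 members at least 1.5-fold lower with S100a9 than with S100a8. The shares of all compared genes that far lower were 0.44%, 0.719%, 0.47% and 0.575%, in the same order. Centring by brightness left 1 member at least 1.5-fold higher in that comparison, beside 0.224% of all compared genes. With the mean of all probe sets, where Mmp9 was no longer compared, the members' median for S100a9 was 0.16 in place of −0.05, and Timp2 was at 0.15 with S100a8 and 0.26 with S100a9. The cause was not tested. A value counted as moved when it shifted by more than the SD between probe sets of a gene (0.19, 0.16 and 0.16 for the 3 comparisons), since no replicate spread exists. No paired analysis was possible because each group holds 1 array.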

Other observations

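The promoter motifs of the low MMP genes were also counted over all compared genes with a promoter in the RefSeq table, a count chosen after the motifs were seen in Mmp13, Mmp3 and Mmp10. Of 58 compared genes whose promoter held both TGANTCA and TATAAA, 5 (8.62%) were at least 2-fold lower with S100a8, against 19 of 9008 (0.211%) without the pair. With S100a9 the counts were 3 of 58 (5.17%) and 11 of 9008 (0.122%). The 5 genes with S100a8 were Mmp13, Mmp10, Mmp3, Rsad2 and Tnfaip3, so most of them are the genes that prompted the count. The 3 with S100a9 were Mmp13, which also prompted it, Rsad2 and Tnfaip3. Neither count gives independent support. The median log2 ratio of the 58 genes was −0.04 with either protein, against 0.01 for the genes without the pair. Rsad2, an interferon-induced antiviral gene, was at −1.26 with S100a8 and −1.05 with S100a9. For TGANTCA alone, 24 of 577 genes (4.16%) were at least 1.5-fold lower with S100a8, against 148 of 8489 (1.74%) without it. The 24 include Mmp13, Mmp3 and Mmp10, so this count gives no independent support either. The median log2 ratio with S100a8 was 0.03 for the 577 genes and 0.01 for the 8489 without the motif.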
